A study of Rattus norvegicus with 15 samples.

Results

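S100 proteins are small calcium-binding proteins made only in vertebrates, and 7 of their genes were described across rat lung libraries: S100a8, S100a9, S100a4, S100a6, S100a10, S100a11 and S100b. The members were chosen by gene symbol, each symbol stood on 1 line of the deposited table, and they are 7 of 22250 genes listed there and 7 of 17 S100 genes. The study examined what the herbal formula Sang Ju Yin (SJY) does to lung transcripts in rats with acute lung injury (ALI). SJY rats received lipopolysaccharide (LPS), a bacterial cell wall component, into the trachea together with SJY by the intragastric route, ALI rats received LPS into the trachea, and control rats are labelled as normal controls. All 3 groups are labelled wild type and hold 5 lung RNA-seq libraries each, so SJY and ALI share LPS and differ by the formula. The labels name no strain, age, dose, time after LPS, instillation control or vehicle control, and do not tie libraries to separate animals. The p-values therefore reflect the spread among these libraries, which may be technical.

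S100 proteins form pairs, bind calcium through EF-hand motifs, and then expose a surface that docks onto partner proteins inside the cell. S100a8 and S100a9 together form calprotectin, which fills the cytosol of neutrophils, withholds zinc and manganese from microbes, and outside the cell acts as an alarmin on Tlr4 and the receptor Ager. In the lung the family is also made by resident cells: S100a6, S100a10 and S100a11 are widespread in epithelium and stroma, S100a4 in fibroblasts and leukocytes, and S100b in peripheral glia and cartilage.

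Levels are given in FPKM, the authors' deposited fragment counts scaled to transcript length and to library size. Summed FPKM ran between 495244 and 700068 per library. Relative depths read from the steps between low values lay between 0.993 and 1.15 times that of control 6, while the absolute depth is unknown. The reading searched only a limited window around the depth of control 6, so a large depth difference could not have shown. The library ALI 1 stood apart from the others: 37.7% of its summed FPKM came from 13 mitochondrially encoded genes, against 10.2% ± 2.72 in the 4 other ALI libraries (SD), 12.4% ± 2.72 in SJY and 8.11% ± 1.94 in control (SD, n = 5 each). ALI 1 also had the lowest summed level of the alveolar type I marker list (592 FPKM) and of the alveolar type II list (6106 FPKM), and the highest summed FPKM of the neutrophil list (8585 FPKM), a sum in which Lcn2 had the highest mean level. By the mean log2(FPKM + 1) of the tested neutrophil markers, ALI 1 (5.47) was the highest ALI library and lay within the SJY range (5.05 to 5.73). Values that rest on ALI 1 are therefore given with and without it. SJY 1 had the next highest mitochondrial share (17.1%, against 10.4% to 12.2% in the other SJY libraries). Fold changes are on the log2(FPKM + 1) scale, and a gene was called at an adjusted p under 0.05 (limma, 1 fit of all 15 libraries, Benjamini-Hochberg adjustment over the 13457 genes tested). All 7 members passed the filter of 1 FPKM in at least 5 libraries.

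The family's summed level was higher in both groups given LPS, and calprotectin transcripts made up most of the difference. The 17 S100 genes held 2.17% ± 0.291 of summed FPKM in SJY (SD, n = 5), 1.34% ± 0.724 in ALI (n = 5) and 0.465% ± 0.0521 in control (n = 5). Without ALI 1 the ALI share was 1.04% ± 0.300 (SD, n = 4), all 4 of these libraries lay below every SJY library, and all lay above every control library. S100a8 and S100a9 supplied 69.0% ± 4.05 of the family's FPKM in SJY, 58.0% ± 18.2 in ALI (51.3% ± 12.1 without ALI 1) and 2.19% ± 0.765 in control. In control lungs the order of mean levels was S100a11, S100a6, S100a10, S100a4, S100a9, S100a8 and S100b. In SJY means S100a9 was ahead of S100a8 and both were ahead of S100a11. The ALI means had the same order with ALI 1, but without it S100a8 (1047 ± 449 FPKM) came after S100a11 (1523 ± 194 FPKM; SD, n = 4), as it did in each of ALI 2 to 5. In SJY, S100a10 and S100a6 followed at 682 ± 103 and 643 ± 164 FPKM and did not differ beyond their spread.

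**Figure D1:**
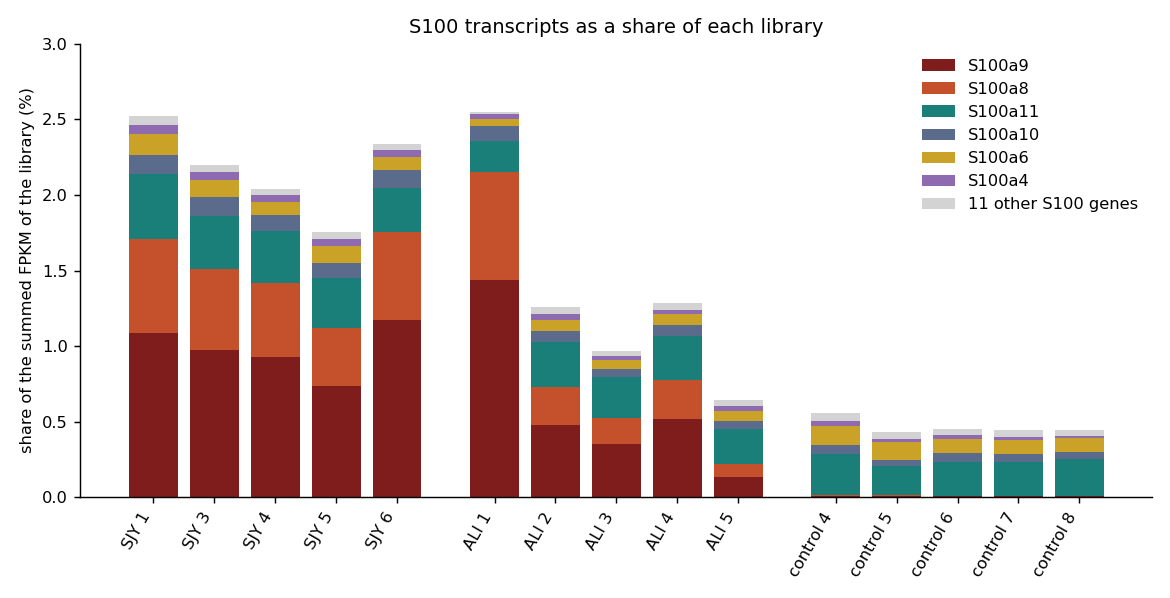
Stacked bars of the percent of each library's summed FPKM held by S100a9, S100a8, S100a11, S100a10, S100a6, S100a4 and the 11 other S100 genes, with SJY, ALI and control libraries from left to right. SJY libraries hold between 1.76% and 2.52%, ALI libraries between 0.646% and 2.55%, and control libraries between 0.430% and 0.557%.

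The calprotectin genes S100a8 and S100a9 were higher in ALI than in control by 96.7-fold and 68.7-fold, and in SJY than in control by 223-fold and 154-fold. Between SJY and ALI neither gene was called with all 15 libraries, and both were called higher in SJY once ALI 1 was left out. S100a8 (ENSRNOG00000011557), the smaller subunit, measured 4094, 3098, 2901, 2216 and 3322 FPKM in SJY 1, 3, 4, 5 and 6. In ALI 1 to 5 it measured 5022, 1425, 1001, 1330 and 432 FPKM. In control 4 to 8 it measured 18.3, 24.9, 5.67, 9.83 and 12.6 FPKM. Every SJY and every ALI library lay above every control library, and ALI 1 alone among the ALI libraries reached the SJY range, exceeding all 5 SJY libraries. S100a9 (ENSRNOG00000011483), the larger subunit, measured 7143, 5690, 5449, 4207 and 6637 FPKM in the SJY libraries in the same order. ALI 1 to 5 held 10067, 2697, 2039, 2713 and 720.1 FPKM of it. Control 4 to 8 held 42.6, 46.7, 21.7, 40.5 and 35.3 FPKM. The pattern was that of S100a8: ALI 1 was highest of all, the 5 SJY libraries came next, then the other ALI libraries, with no overlap of either group with control.

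By group mean, S100a9 ranked 12 in SJY, 14 in ALI (21 without ALI 1) and 2373 in control among the 22250 genes. S100a8 ranked 17 in SJY, 26 in ALI (41 without ALI 1) and 6136 in control. Against control, the log2 fold changes in ALI were 6.60 ± 0.49 for S100a8 and 6.10 ± 0.47 for S100a9 (SE; limma adjusted p = 1.57e-06 and 1.83e-06), and 6.12 and 5.61 without ALI 1. Against the same control libraries, those in SJY were 7.80 ± 0.49 and 7.27 ± 0.47 (limma adjusted p = 9.35e-08 and 1.18e-07). The SJY minus ALI difference was 1.21 ± 0.49 for S100a8 (95% interval 0.17 to 2.24, adjusted p = 0.361) and 1.17 ± 0.47 for S100a9 (0.17 to 2.16, adjusted p = 0.359). Without ALI 1 it was 1.69 for S100a8 (limma adjusted p = 0.0463) and 1.66 for S100a9 (adjusted p = 0.0272), and all 5 SJY libraries then lay above all 4 ALI libraries for both genes. Without ALI 5, the lowest ALI library of both, it was 0.80 and 0.71 (limma adjusted p = 0.583 each). Of 10 fits that each left out 1 library, only the 1 without ALI 1 called either gene.

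The 2 subunits kept a narrow ratio in lungs given LPS. S100a9 stood at 1.87 ± 0.0922 times S100a8 in SJY (SD, n = 5, range 1.74 to 1.998), 1.93 ± 0.157 times in ALI (1.67 to 2.04) and 2.99 ± 0.957 times in control (1.88 to 4.12). ALI 1, with the highest level of both, had a ratio of 2.005, inside the range of the other ALI libraries. The control ratio rests on low levels of S100a8, and the difference in ratio between groups was not tested.

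**Figure D2:**
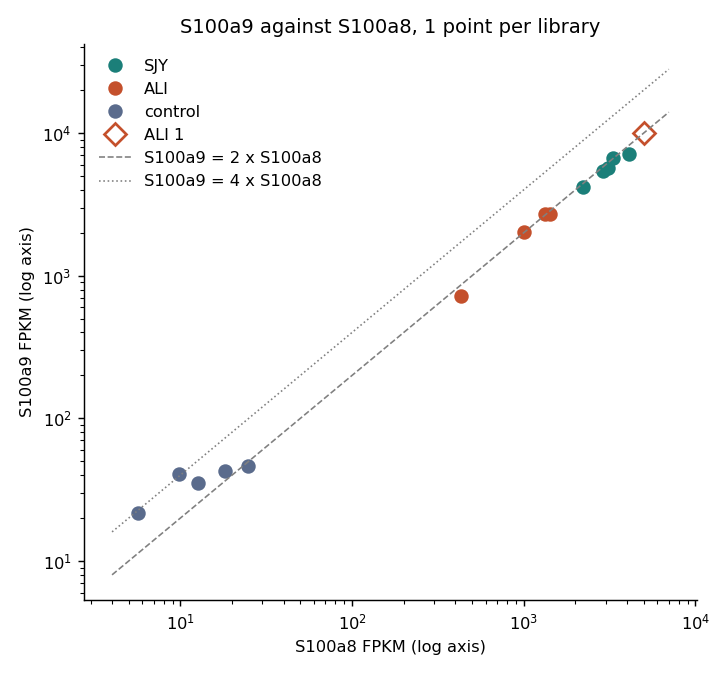
S100a9 against S100a8 in each of the 15 libraries, both in FPKM on log axes, coloured by group with ALI 1 as an open diamond. SJY and ALI libraries line up at ratios between 1.67 and 2.04, and the control libraries lie lower on both axes at ratios between 1.88 and 4.12.

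Most neutrophil transcripts moved with S100a8 and S100a9. Of 21 neutrophil markers listed, which hold no S100 gene, 18 passed the filter. Against control, 16 of the 18 were called higher in ALI and none lower (median log2 fold change 2.03, against -0.12 over all genes), and 17 were called higher in SJY and none lower (median 3.04, against -0.11). Over all genes tested, 8.02% were called higher in ALI and 14.6% in SJY against control. Between SJY and ALI limma called none of the 18 with all libraries. Without ALI 1 it called 10 higher in SJY, where 0.884% of all genes were called higher. Examples are Mmp8, a collagenase of neutrophil granules, at 177 ± 41.1 FPKM in SJY, 117 ± 103 in ALI and 1.97 ± 0.584 in control (SD, n = 5 each), and Csf3r, the receptor for granulocyte colony-stimulating factor, at 173 ± 13.4 FPKM in SJY, 87.0 ± 33.7 in ALI and 8.05 ± 1.47 in control. The summed level of the list ran between 2310 and 4553 FPKM in SJY, 846 and 8585 FPKM in ALI, and 194 and 289 FPKM in control. Ltf, Ngp and Mpo did not pass the filter. Ltf and Mpo were low in all groups, with Ltf at 0 in all SJY libraries. Ngp averaged 0.534 ± 0.264 FPKM in SJY, 0.510 ± 0.0920 in ALI and 2.19 ± 3.26 in control. Among the tested markers, G0s2 had a lower mean in ALI than in control (-0.85, limma adjusted p = 0.0568) and was near control in SJY (-0.095). The part of the neutrophil markers in the S100a8 and S100a9 difference was not tested. In bulk lung RNA more cells of a type and more RNA per cell cannot be told apart.

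S100a8 stood further above the neutrophil list in lungs given LPS than in control, a difference that was not tested. On the log2(FPKM + 1) scale S100a8 exceeded the mean of the 18 markers by 6.15 ± 0.20 in SJY (SD, n = 5), 5.77 ± 0.68 in ALI (5.50 ± 0.38 without ALI 1, n = 4) and 1.52 ± 0.71 in control (n = 5). The ranges were 5.97 to 6.49 in SJY, 4.99 to 6.83 in ALI and 0.49 to 2.34 in control, so neither group given LPS overlapped with control. The size of the gap depends on the pseudocount, as the list holds genes near 0 in control, such as Elane at 0.165 FPKM. With a pseudocount of 0.1 the mean gaps were 6.26 in SJY, 5.94 in ALI and 2.16 in control. Over the 15 libraries the genes outside the family whose centred log2 profile lay closest to S100a8 were Mmp8, Il1r2 and Prok2, with root mean square differences of 0.94, 1.02 and 1.16 log2 units against a spread of 3.52 for S100a8 itself. The same 3 genes lay closest to S100a9, at 0.65, 0.77 and 0.91. Il1r2 encodes a decoy receptor for interleukin-1 and Prok2 a small secreted chemoattractant. S100a8 and S100a9 lay 0.34 apart.

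**Figure D3:**
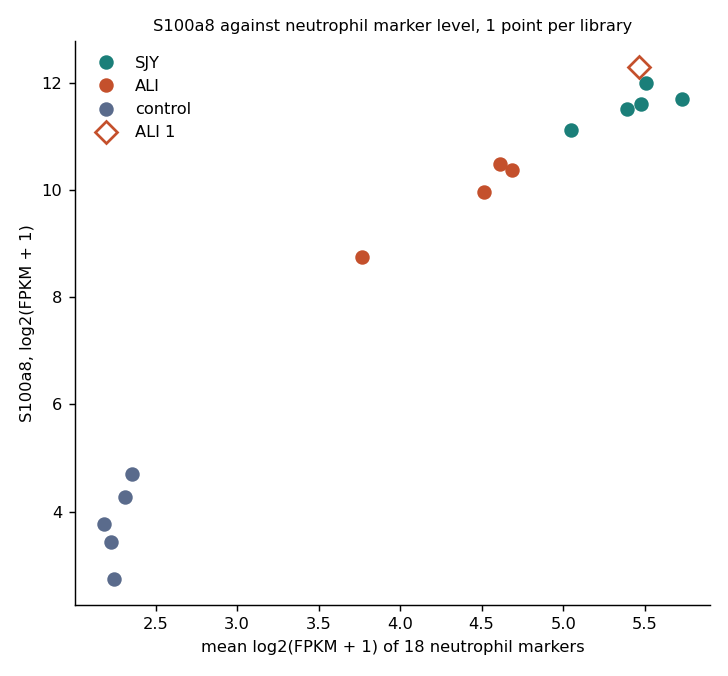
S100a8 against the mean of 18 neutrophil markers in each library, both as log2(FPKM + 1), coloured by group with ALI 1 as an open diamond. S100a8 stands 5.97 to 6.49 log2 units above the marker mean in SJY, 4.99 to 6.83 in ALI and 0.49 to 2.34 in control; the points share libraries, and no test was made.

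In the rat reference (RefSeq, GRCr8) 15 of the 17 S100 genes, among them 6 of the 7 members, lie on chromosome 2, with S100a9 directly next to S100a8. The other 2, S100b and S100g, lie on chromosomes 20 and X. Promoter sequence was matched for 5 of the 7 members (S100a9, S100a4, S100a6, S100a11 and S100b) in RefSeq on GRCr8, a different build from the Rnor_6.0 named in the submitters' processing notes. The 250 bases before the start of S100a9 are shown because this gene had the highest level of the family in lungs given LPS, and those of S100a4 and S100a6 because these near neighbours, with S100a5 between them, differed in ALI. Capitals mark motif matches, each sequence runs 5′ to 3′ on the gene's strand, and the windows are chr2:178490623-178490872 (minus strand) for S100a9, chr2:178388279-178388528 (plus strand) for S100a4 and chr2:178398287-178398536 (plus strand) for S100a6.
S100a9: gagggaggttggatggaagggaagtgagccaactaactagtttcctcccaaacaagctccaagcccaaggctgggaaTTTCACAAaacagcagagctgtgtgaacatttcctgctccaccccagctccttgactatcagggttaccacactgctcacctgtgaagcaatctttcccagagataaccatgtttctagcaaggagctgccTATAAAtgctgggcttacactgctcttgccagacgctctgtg
S100a4: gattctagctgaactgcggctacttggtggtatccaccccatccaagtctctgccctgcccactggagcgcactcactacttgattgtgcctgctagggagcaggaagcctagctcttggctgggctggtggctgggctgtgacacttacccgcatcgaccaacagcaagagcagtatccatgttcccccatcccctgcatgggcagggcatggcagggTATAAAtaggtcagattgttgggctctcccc
S100a6: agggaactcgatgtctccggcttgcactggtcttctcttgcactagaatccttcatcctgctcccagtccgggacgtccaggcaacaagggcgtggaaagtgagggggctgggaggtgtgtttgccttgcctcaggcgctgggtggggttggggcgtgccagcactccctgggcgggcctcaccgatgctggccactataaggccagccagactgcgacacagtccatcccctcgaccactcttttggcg

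Both strands of the 5 windows were searched for 5 motifs. C/EBP sites were written as TTNNGNAA, AP-1 as TGANTCA, STAT as TTCNNNGAA, PU.1 as GAGGAAG and the TATA box as TATAAA, and no matches overlapped. The S100a9 window held 1 C/EBP match, on the strand opposite the gene. In the sequence shown it reads TTTCACAA, which fits the reverse complement TTNCNNAA, and begins 173 bases before the start. The window also held 1 TATA box match beginning 42 bases before the start. The S100a4 window held a TATA box match beginning 31 bases before the start, and the windows of S100a6, S100a11 and S100b held none of the 5. Among 33469 rat promoter windows of the same length, 37.2% held the C/EBP letters and 12.9% the TATA box letters, while AP-1 letters were in 6.34%, STAT in 7.67% and PU.1 in 10.2%. A match is a description of letters, and binding was not measured.

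S100a4, S100a10 and S100a11 were higher in SJY than in control with no overlap between libraries, and their ALI levels lay between the other groups on average. S100a4 (ENSRNOG00000011821), a motility protein that binds non-muscle myosin, measured 401, 316, 275, 277 and 251.5 FPKM in SJY 1, 3, 4, 5 and 6. In ALI 1 to 5 it measured 237, 225, 139.7, 166 and 178 FPKM. In control 4 to 8 it measured 184, 101.9, 128, 95.3 and 85.3 FPKM. Every SJY library lay above every ALI and control library, while control 4 lay above 3 ALI libraries. S100a4 was 0.69 ± 0.20 higher in ALI than in control (log2, SE; limma adjusted p = 0.0294; 0.61 and 0.0546 without ALI 1) and 1.38 ± 0.20 higher in SJY than in control (adjusted p = 0.00021). The SJY minus ALI difference was 0.69 ± 0.20 (95% interval 0.26 to 1.12, limma adjusted p = 0.234) and was not called without ALI 1 either (0.78, adjusted p = 0.0692).

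S100a10 (ENSRNOG00000023226), which cannot bind calcium and joins annexin A2 in a complex that captures plasminogen at the cell surface, measured 832, 714, 633, 555 and 679 FPKM in the SJY libraries in the same order. Its levels in ALI 1 to 5 were 700.0, 386, 309, 402 and 289.8 FPKM. Those in control 4 to 8 were 326, 198, 278, 247 and 239.7 FPKM. ALI 1 lay within the SJY range, the other ALI libraries lay below every SJY library, and control 4 lay above ALI 3 and ALI 5. Its log2 fold change was 0.64 ± 0.21 in ALI against control (limma adjusted p = 0.0446; 0.43 and 0.0657 without ALI 1) and 1.41 ± 0.21 in SJY against control (adjusted p = 0.000203). Between SJY and ALI it was 0.77 ± 0.21 (95% interval 0.33 to 1.21, limma adjusted p = 0.206) and 0.98 without ALI 1 (adjusted p = 0.0115).

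S100a11 (ENSRNOG00000010105), a partner of annexin A1 in membrane repair and growth control, measured 2829, 2064, 2020.5, 1879 and 1665 FPKM in the SJY libraries. Its levels in ALI 1 to 5 were 1408, 1714, 1589.6, 1532 and 1255 FPKM. Those in control 4 to 8 were 1523, 950.4, 1132, 1119.6 and 1200.5 FPKM. SJY and control did not overlap, whereas SJY 6 lay below ALI 2 and control 4 lay above ALI 1 and ALI 5. S100a11 was 0.81 ± 0.15 higher in SJY than in control (log2, SE; limma adjusted p = 0.00139). Neither other difference was called: 0.35 ± 0.15 for ALI minus control (95% interval 0.020 to 0.68, limma adjusted p = 0.123) and 0.46 ± 0.15 for SJY minus ALI (0.14 to 0.79, adjusted p = 0.277). The reference lists 7 copies or pseudogenes of S100a11 and 1 of S100a10, so the levels of both genes are uncertain where reads could be shared.

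S100a6 took another course: it was called lower in ALI than in control with all 15 libraries, and its SJY and control libraries overlapped. S100a6 (ENSRNOG00000011647), known as calcyclin and a partner of Cacybp and Sugt1, measured 896, 671, 509.8, 652 and 484 FPKM in SJY 1, 3, 4, 5 and 6. In ALI 1 to 5 it measured 305, 437.5, 344, 356 and 338 FPKM. In control 4 to 8 it measured 691, 577, 457, 484 and 449 FPKM. All 5 ALI libraries lay below all SJY and all control libraries. The log2 fold change was -0.57 ± 0.17 in ALI against control (limma adjusted p = 0.0322; -0.51 and 0.0562 without ALI 1) and 0.26 ± 0.17 in SJY against control (95% interval -0.10 to 0.62, adjusted p = 0.262). SJY exceeded ALI by 0.82 ± 0.17 (95% interval 0.46 to 1.19, limma adjusted p = 0.151), and by 0.77 without ALI 1 (adjusted p = 0.0438). S100a4 stood at 0.480 ± 0.0481 times S100a6 in SJY, 0.538 ± 0.141 times in ALI (0.479 ± 0.0551 without ALI 1) and 0.222 ± 0.0478 times in control, with no SJY or ALI library in the control range of 0.177 to 0.281. S100a5, which lies between the pair, measured 0.865 ± 0.722 FPKM in SJY, 0.762 ± 0.908 in ALI and 0.307 ± 0.217 in control (SD, n = 5 each) and was not tested.

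**Figure D4:**
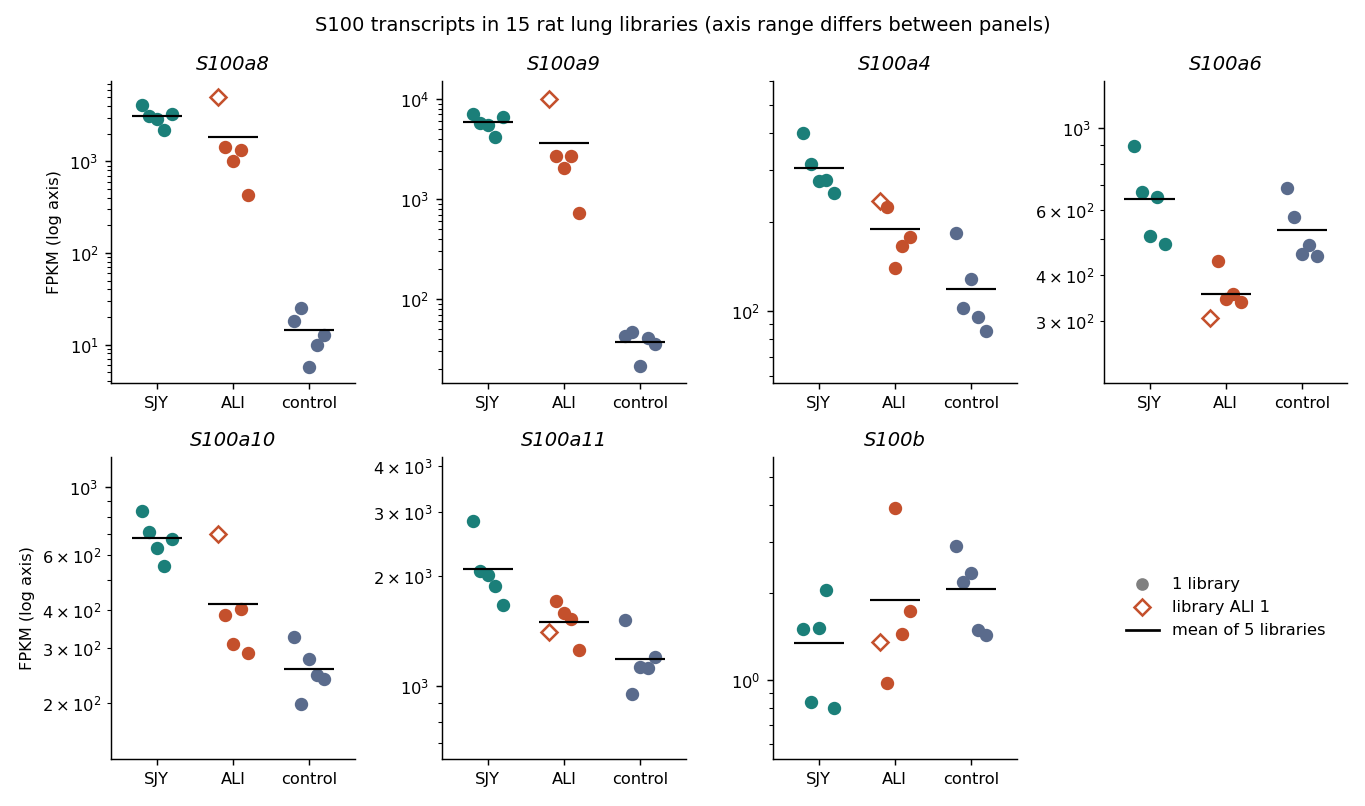
Level of each of the 7 members in every library, in FPKM on log axes that differ between panels, with SJY, ALI and control from left to right, lines at the group means and ALI 1 as an open diamond. S100a8 and S100a9 lie far above control in both groups given LPS, all ALI libraries of S100a6 (305 to 437.5 FPKM) lie below both other groups, and the groups of S100b overlap.

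S100b (ENSRNOG00000001295), the calcium sensor of glia, was close to the filter and was not called in any comparison. It measured 1.503, 0.837, 1.51, 2.04 and 0.7998 FPKM in SJY 1, 3, 4, 5 and 6. In ALI 1 to 5 it measured 1.35, 0.977, 3.93, 1.44 and 1.73 FPKM. In control 4 to 8 it measured 2.90, 2.18, 2.33, 1.49 and 1.43 FPKM. The groups overlapped, and ALI 3 held the highest level. Log2 differences were -0.14 ± 0.24 for ALI minus control (95% interval -0.64 to 0.36, limma adjusted p = 0.689), -0.26 ± 0.24 for SJY minus ALI (-0.76 to 0.24, adjusted p = 0.721) and -0.40 ± 0.24 for SJY minus control (-0.90 to 0.10, adjusted p = 0.209). Of 8 Schwann cell markers listed, 6 were tested, and their summed level ran between 45.7 and 65.0 FPKM in SJY, 44.0 and 82.1 FPKM in ALI, and 85.0 and 139 FPKM in control. Among them Prx, a myelin protein also made by other cells, was called lower in ALI (limma adjusted p = 0.00312) and in SJY (adjusted p = 0.000675), Cnp was called higher in ALI and Gfra3 lower in SJY, each against control. Sox10, a defining factor of that lineage, averaged 0.0949 FPKM in SJY, 0.142 in ALI and 0.146 in control. Cartilage markers summed to between 1.42 and 5.65 FPKM in all libraries, with Acan at 0 in all ALI libraries and Col9a1 at 0 in all SJY and all control libraries. The part of these cells in the S100b level was not tested.

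Counted over the members, ALI against control gave 4 called higher (S100a8, S100a9, S100a4 and S100a10) and 1 called lower (S100a6), 5 of 7, where 17.6% of all genes tested were called, 8.02% higher and 9.56% lower. The median log2 fold change of the members was 0.64, against -0.12 over all genes. Without ALI 1, limma called 2 of 7 (S100a8 and S100a9), where 17.0% of all genes were called, and the median was 0.43, against -0.024 over all genes. In 2 members (S100a8 and S100a9) every ALI library lay above every control library, against 6.17% of all genes, and in S100a6 every one lay below, against 6.73%. With median-of-ratios scaling the median of all genes was 0.0001 and S100a6 was no longer called (-0.42, limma adjusted p = 0.169), nor was S100a10 (0.78, adjusted p = 0.0673). The S100a4, S100a6 and S100a10 calls also ended when single libraries were left out: S100a4 without ALI 1, ALI 2 or control 5, 7 or 8, S100a6 without ALI 1, ALI 3 or control 4, 5 or 7, and S100a10 without ALI 1, 2 or 4 or control 5, 6, 7 or 8, with adjusted p of these 3 genes between 0.0522 and 0.110.

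SJY against ALI gave 0 members called by limma, while 0.00743% of all genes were called, which is 1 gene (Gzma, a granzyme of cytotoxic lymphocytes, 1.51, adjusted p = 0.0437). At an unadjusted p under 0.05 there were 6 of 7 members, all but S100b and all higher in SJY, against 11.8% of all genes. The median of the members was 0.77, against 0.029 over all genes, and 2 of them (S100a4 and S100a6) had every SJY library above every ALI library, against 2.24% of all genes. Without ALI 1, limma called 4 of 7 higher (S100a8, S100a9, S100a6 and S100a10), where 1.35% of all genes were called, 0.884% higher, and 5 of 7 did not overlap, against 4.74% of all genes higher. SJY against control gave 5 members called higher and 0 lower, where 32.6% of all genes were called, 14.6% higher. Those 5 (S100a8, S100a9, S100a4, S100a10 and S100a11) were also the 5 with every SJY library above every control library, against 11.8% of all genes. The median was 1.38, against -0.11 over all genes, and these 5 calls held without SJY 1. All 3 comparisons draw on shared groups: ALI and SJY are set against the same control libraries.

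**Figure D5:**
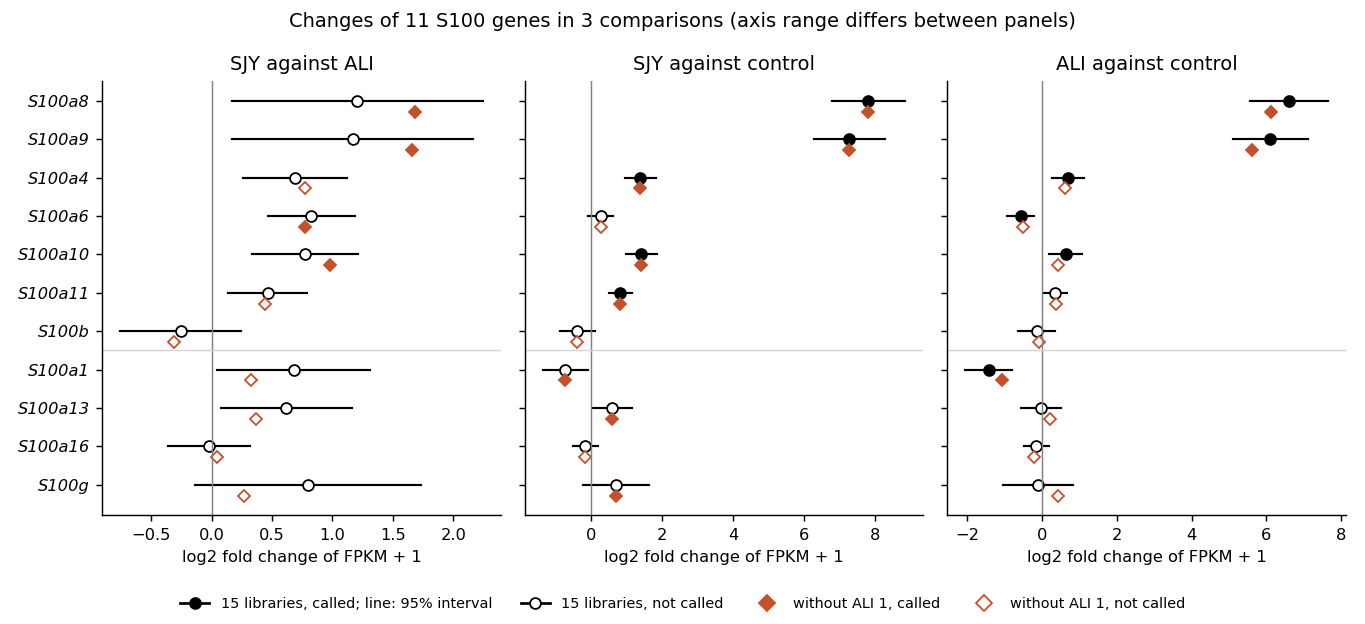
Log2 fold change on the log2(FPKM + 1) scale of 11 S100 genes in SJY against ALI, SJY against control and ALI against control, as circles with 95% limma intervals and, without ALI 1, as diamonds, filled where called. S100a8 and S100a9 lie above 5 in both comparisons with control, the other members lie between -0.57 and 1.41 in all 3, and S100b intervals cross 0.

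Genes with the most similar profiles were also named for the other members. By the same root mean square measure over 15 libraries, S100a4 lay closest to Atp5mf (0.22), Sh3bgrl3 (0.23) and Pin4 (0.23), and S100a10 to Gng10 (0.19), Srgn (0.22) and Fbxl5 (0.23). S100a4 and S100a10 lay 0.25 apart, about as close as each lay to these genes. S100a11 lay closest to Sugt1 (0.11), Mpc1 (0.12) and Cox6c (0.14), and S100a6 to Hspb1 (0.18), Gstp1 (0.18) and Cd99 (0.20). Hspb1, a small heat shock protein, was called lower in ALI against control as S100a6 was (-0.77, limma adjusted p = 0.0147). The genes closest to S100b were LOC499331 (0.22), Cblc (0.25) and Rhod (0.27), against a spread of 0.38 for S100b itself. Part of these neighbours depended on ALI 1. Without it S100a8 and S100a9 kept their 3, whereas 1 of 3 was replaced for S100a4 and for S100a6, and 2 of 3 for S100a10, S100a11 and S100b. Atp5mf, Hspb1, Gng10 and Sugt1 remained the closest to S100a4, S100a6, S100a10 and S100a11, and Satb1 (0.21) became the closest to S100b. Within SJY, the library SJY 1 had the highest level of 6 of the 7 members, all but S100b.

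Of the 10 other S100 genes in the table, 4 passed the filter and S100a1 was the one called with 15 libraries. S100a1, a calcium sensor best known from heart muscle, averaged 30.6 ± 5.31 FPKM in SJY, 20.5 ± 8.38 in ALI and 52.1 ± 11.8 in control (SD, n = 5 each). Every ALI library lay below every control library (-1.42 ± 0.30, limma adjusted p = 0.00489; -1.06 and 0.000379 without ALI 1). Every SJY library also lay below every control library (-0.74 ± 0.30, limma adjusted p = 0.068; 0.00141 without ALI 1). S100g, the vitamin D-regulated calcium buffer calbindin-D9k, averaged 151 ± 52.6 FPKM in SJY, 101.9 ± 53.2 in ALI and 92.2 ± 27.1 in control. S100a13, which aids release of fibroblast growth factor 1, averaged 25.4 ± 5.53 FPKM in SJY, 17.0 ± 6.08 in ALI and 16.7 ± 4.48 in control. S100a16 averaged 63.4 ± 11.2 FPKM in SJY, 64.5 ± 12.3 in ALI and 71.1 ± 10.9 in control. Without ALI 1, S100a13 (0.59, limma adjusted p = 0.0136) and S100g (0.69, adjusted p = 0.0221) were called higher in SJY against control. In that fit 44.3% of all genes tested were called in SJY against control. ALI 1 is in neither group, so these fold changes and that of S100a1 stayed the same and only the shared estimate of spread changed. The SJY and control libraries of S100a13 and S100g overlapped. The 6 others stayed at or below 2.32 FPKM in every library, and S100a7l2 and S100vp were listed at 0 in all 15.

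Receptors at the cell surface moved in both directions. Of 6 tested, ALI against control called 2 higher and 2 lower, and SJY against control 3 higher and 2 lower, beside 17.6% and 32.6% of all genes. Cd14, the LPS co-receptor, averaged 123 ± 28.7 FPKM in SJY, 107 ± 29.3 in ALI and 29.9 ± 5.04 in control, and was called higher than in control in SJY (1.98, limma adjusted p = 5.72e-06) and in ALI (1.78, adjusted p = 3.95e-05). Fpr1, a formyl peptide receptor of phagocytes, was called higher in both as well, at 7.72 ± 3.42 FPKM in SJY, 3.79 ± 1.89 in ALI and 0.0922 ± 0.0878 in control, and Fpr2, a related receptor, had 0.95 in SJY (limma adjusted p = 0.00448) and 0.64 in ALI (adjusted p = 0.0546) against control. Ager, which encodes the receptor RAGE and also marks alveolar type I cells, averaged 751 ± 195 FPKM in SJY, 583 ± 247 in ALI and 1278 ± 254 in control. It was called lower in ALI (-1.27 ± 0.32, limma adjusted p = 0.0132), while in SJY it had -0.78 (adjusted p = 0.069). The fit without ALI 1 called it lower in SJY as well (limma adjusted p = 0.00309), where 44.3% of all genes were called. With 15 libraries, all 9 alveolar type I markers, Ager among them, were called lower in ALI and 7 of 9 in SJY, each against control. Over all genes, 9.56% were called lower in ALI, and 32.6% were called in either direction in SJY. The summed level of the 9 markers ran between 1527 and 2443 FPKM in SJY, 592 and 2068 FPKM in ALI, and 2955 and 4244 FPKM in control. Bsg, a surface receptor for S100a9, was called lower in ALI (-0.60, limma adjusted p = 0.0269) and in SJY (-0.48, adjusted p = 0.0463). Tlr4, the receptor for LPS and calprotectin, stood at 5.26 ± 0.767 FPKM in SJY, 6.46 ± 0.839 in ALI and 7.54 ± 1.55 in control, and was called lower in SJY (-0.44, limma adjusted p = 0.035). SJY against ALI called none of the 6, with Ager at 0.49 (limma adjusted p = 0.582) and Bsg at 0.13 (adjusted p = 0.827).

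Of 12 partners inside the cell 11 were tested. ALI against control called 1 higher (Anxa2) and 2 lower (Ahnak and Anxa5), SJY against control 4 higher and 1 lower, and SJY against ALI none. The 3 of 11 called in ALI and 5 of 11 in SJY stand beside 17.6% and 32.6% of all genes tested, and nothing particular to the list is read from them. Anxa2, the annexin that holds S100a10, averaged 626 ± 52.0 FPKM in SJY, 479 ± 104 in ALI and 313 ± 16.7 in control, with log2 fold changes of 0.59 in ALI (limma adjusted p = 0.00707) and 1.00 in SJY (adjusted p = 7.53e-05) against control. S100a10 stood at 1.08 ± 0.0800 times Anxa2 in SJY, 0.851 ± 0.148 times in ALI and 0.820 ± 0.117 times in control (SD, n = 5 each). ALI 1 had a ratio of 1.12, and the 4 other ALI libraries averaged 0.785 ± 0.0185. Ahnak, a giant scaffold that binds the S100a10 and Anxa2 complex, averaged 53.2 ± 5.42 FPKM in SJY, 55.8 ± 22.6 in ALI and 144 ± 20.9 in control and was called lower than in control in SJY (-1.41, limma adjusted p = 0.000607) and in ALI (-1.45, adjusted p = 0.000892). Anxa5, another annexin, was called lower in ALI (-0.64, limma adjusted p = 0.0269). Sugt1 (0.78, limma adjusted p = 0.00093) and Anxa1 (0.58, adjusted p = 0.0191) were called higher in SJY against control. Between SJY and ALI, Actb (0.12, limma adjusted p = 0.692) and Anxa2 (0.41, adjusted p = 0.262) had the highest levels of the list, and Anxa2 was called higher in SJY without ALI 1 (0.51, adjusted p = 0.0355). Myh9, the heavy chain to which S100a4 binds, was listed between 0 and 0.518 FPKM and was not tested; a value near 0 in such a table can be a failed estimate, so it is no measure of absence.

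In the plasminogen system served by S100a10, Plaur, the urokinase receptor, was called higher than in control in SJY (1.05, limma adjusted p = 0.00245) and in ALI (0.70, adjusted p = 0.0364; 0.0667 without ALI 1). Plaur averaged 43.8 ± 12.2 FPKM in SJY, 34.7 ± 11.9 in ALI and 20.1 ± 2.45 in control (SD, n = 5 each). Plat, tissue plasminogen activator, averaged 158 ± 45.0 FPKM in SJY, 109.8 ± 25.3 in ALI and 80.5 ± 4.90 in control. It was called higher in SJY than in control (0.92, limma adjusted p = 0.00159), and had 0.42 in ALI against control (adjusted p = 0.11). Neither was called between SJY and ALI, with Plat at 0.50 (limma adjusted p = 0.308) and Plaur at 0.34 (adjusted p = 0.572). Plau, the gene of urokinase, went the other way, at 9.77 ± 2.16 FPKM in SJY, 12.7 ± 6.38 in ALI and 18.5 ± 1.65 in control. Against control it had -0.72 in ALI (limma adjusted p = 0.144) and -0.88 in SJY (adjusted p = 0.0558). Without ALI 1, limma called Plau lower in SJY than in control (adjusted p = 0.000928), where 44.3% of all genes were called.

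Among 9 transcription factors tied to S100a8 and S100a9 in myeloid cells, ALI against control called 4 higher and 1 lower and SJY against control 5 higher and 1 lower, beside the same background of 17.6% and 32.6%. Cebpb, a factor of the acute inflammatory response, averaged 283 ± 153 FPKM in SJY, 415 ± 89.5 in ALI and 91.4 ± 29.8 in control and was called higher than in control in SJY (1.49, limma adjusted p = 0.00389) and in ALI (2.20, adjusted p = 0.000483). Spi1, which encodes the myeloid factor PU.1, averaged 138 ± 12.2 FPKM in SJY, 100.5 ± 30.2 in ALI and 44.1 ± 3.05 in control. Cebpd, another C/EBP factor, averaged 381 ± 56.0 FPKM in SJY, 329 ± 82.3 in ALI and 149 ± 30.7 in control. Against control, Spi1 was called higher in SJY (1.62, limma adjusted p = 2.84e-06) and in ALI (1.13, adjusted p = 0.000178), as was Cebpd in SJY (1.36, adjusted p = 6.61e-05) and in ALI (1.13, adjusted p = 0.000614). Klf5, an epithelial factor, was called lower in SJY (-0.75, limma adjusted p = 0.00104) and in ALI (-0.69, adjusted p = 0.00308). Between SJY and ALI none was called, with Cebpd at 0.23 (limma adjusted p = 0.648) and Cebpb at -0.71 (adjusted p = 0.419), and without ALI 1 Spi1 was called higher in SJY (0.66, adjusted p = 0.0115).

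Markers of other cell types that could hold S100 transcripts also differed between groups. Of 10 monocyte and macrophage markers tested, 5 were called higher and 0 lower in each of ALI and SJY against control. Over all genes tested, 8.02% were called higher in ALI and 14.6% in SJY. Summed levels of the list were 11508 to 16190 FPKM in SJY, 4838 to 18448 FPKM in ALI and 12696 to 18579 FPKM in control. Lyz2 had by far the highest mean of the list, at 13886 FPKM in SJY, 12016 in ALI and 14993 in control. It was called against control in neither group, so the sums do not describe the called markers. Marco was at 0 in all control libraries. Of 6 fibroblast markers, 3 were called higher in both ALI and SJY against control, beside the same shares of all genes. Their summed levels were 600.4 to 756 FPKM in SJY, 394 to 869 FPKM in ALI and 300.2 to 411 FPKM in control. Between SJY and ALI neither list had a call with 15 libraries. Without ALI 1, Marco was called higher in SJY than in ALI (1.26, limma adjusted p = 0.0115). In the same fit Col1a1, a fibroblast marker, was called lower in SJY (-0.87, limma adjusted p = 0.0266). No other gene of the 2 lists was called there, where 1.35% of all genes were called. The part of these cells in the S100a4, S100a6, S100a10 and S100a11 differences was not tested.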

How the data were processed

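Lung RNA in 15 libraries of 3 labelled groups (SJY, ALI and control, 5 each) was measured by RNA-seq. Per the labels' protocols, a NEBNext Ultra kit was used on 1 ug of TRIzol-extracted total RNA. Tools named in the submitters' processing notes are HISAT2, StringTie and cutadapt, with build Rnor_6.0 and no versions, so strand use and the handling of shared reads are not given in the sources used here. The authors deposited FPKM per gene and library, which hold no counts, so absolute depth is unknown and no counting interval is given.

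The FPKM were used unscaled. Genes that reached 1 FPKM in 5 or more of the 15 libraries (13457 of 22250) were fitted as log2(FPKM + 1) with limma 3.58.1 in R 4.3.3 (3 groups in 1 fit, trend and robust settings, two-sided moderated test). P-values were adjusted over all genes tested (Benjamini-Hochberg), and calls used 0.05. The pseudocount of 1 understates changes of low genes such as S100b. Descriptions used Python 3.11.15, pandas 2.3.3 and numpy 2.4.6.

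The members and all gene lists were chosen with earlier results of these data known. All 7 members are named. For the lists of receptors, partners inside the cell, plasminogen genes and transcription factors, a naming rule was used. Of each, up to 3 called genes per direction with the largest change are named. In such a list without calls, these are the 2 genes of highest mean level. Genes named from the cell type marker lists are examples outside this rule. Plau and Lyz2 are named besides, for a direction or a level that sets them apart in their lists. Neighbouring genes beyond the family were named by likeness, 3 per member with a mean of at least 5 FPKM. Gene order and promoters come from RefSeq on GRCr8. Alternatives covered scaling, pseudocount, filters, model settings, a replicate block and leaving out each library. Replicate numbers shared by groups were not treated as pairs. S100a2, S100a14 and S100p were not analysed here. One gene of the plasminogen list is not reported here.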

Additional observations from a re-analysis of the deposited data

Results flagged for a closer look

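In all, 102 groups of 5 libraries were examined, for the tested S100 genes, their ratios and shares and most of the genes named with levels. Of these groups, 13 held a library far from the other 4. The threshold flags about 5% of groups when values are independent and normally distributed. These groups share the same 15 libraries and FPKM need not be normally distributed, so 13 cannot be read against 5%. In ALI, the library ALI 1 was far above the rest for 3 members: S100a8 at 5022 FPKM with the others between 432 and 1425, S100a9 at 10067 FPKM with the others between 720.1 and 2713, and S100a10 at 700.0 FPKM with the others between 289.8 and 402. ALI 1 also held a ratio of S100a10 to Anxa2 of 1.12 (others 0.766 to 0.804) and a mitochondrial share of 37.7% (others 8.31% to 14.1%). The part of the mitochondrial share in these values was not tested.

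ALI 3 stood far above the other ALI libraries for S100b at 3.93 FPKM (others 0.977 to 1.73) and for S100a5 at 2.32 FPKM (others 0.137 to 0.732). SJY 1 stood far above the other SJY libraries for S100a13 at 35.1 FPKM (others 21.3 to 23.7), for S100g at 241 FPKM (others 107 to 146) and for the mitochondrial share at 17.1% (others 10.4% to 12.2%). In control, control 4 had the highest S100 share of summed FPKM at 0.557% (others 0.430% to 0.452%), and control 5 the highest Ager at 1722 FPKM (others 1105 to 1251) and Bsg at 394 FPKM (others 282 to 302).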

How the results depend on the processing

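Absolute depth is unknown, so values near 1 FPKM such as S100b carry an error that cannot be stated. Of 375 alternative member fold changes, 336 kept their direction and side of the threshold, 27 lost a call, 11 gained one and 1 reversed. The calls of S100a8, S100a9, S100a4, S100a10 and S100a11 in SJY against control held in 18 of 18 alternatives. In ALI against control S100a8 and S100a9 were called in 17 of 18, S100a4 and S100a6 in 11 of 18 and S100a10 in 7 of 18.

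Genes called in ALI against control (2366) were 1332 with a fit of these 2 groups, 3959 with array weights and 1556 to 2897 when 1 library was left out. Members called (5) were 3 with median-of-ratios scaling, 3 with the fit of 2 groups and 2 to 5 when 1 library was left out, the 2 coming without ALI 1, control 5 or control 7. The 1 gene called in SJY against ALI became 0 with that scaling, a pseudocount of 0.1, no filter, the fit of 2 groups or no trend and robust settings, 478 with array weights, and 0 to 181 when 1 library was left out, 181 without ALI 1. Members called there (0) were 5 with array weights and 0 to 4 when 1 library was left out, 4 without ALI 1. Genes called in SJY against control (4390) were 7654 with array weights. The cause of these shifts was not tested.

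Groups shared some replicate numbers, but the deviations of same-numbered libraries had correlations between -0.39 and 0.30, not all above 0.1, and no label ties them, so the numbers were not treated as pairs. With the number as a replicate block, which keeps only libraries whose number is in both groups, 0 genes and 0 members were called in ALI against control (S100a8 at 5.09 and S100a9 at 4.94, adjusted p = 0.0844 each, with the 2 shared numbers, 4 and 5), 0 genes in SJY against ALI, and S100a6 in SJY against control reversed to -0.059 (adjusted p = 0.823).

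Leaving out ALI 1 for the other S100 genes and for overlap was chosen after seeing the data. It reversed 3 uncalled differences: S100a13 (0.23) and S100g (0.42) in ALI against control, and S100a16 (0.048) in SJY against ALI. Members with SJY above ALI in every library numbered 5 without ALI 1, against 2 with it.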
